A study of Mus musculus with 6 samples.

Results

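The mRNA that mature mouse sperm carried in every replicate was described as a constant set of genes. Its members were chosen by their measured counts. For each gene, the estimated counts of its transcripts with an NM_ accession, the RefSeq code for a curated mRNA, were summed in each sperm sample, and the gene was kept where the sum was 5 or more in all 4 samples. This rule kept 525 of the 7527 genes with an NM_ transcript listed in any sperm sample (6.97%), out of 14455 genes in all 6 samples of the series. Because the rule used these counts, levels, ranks and shares are given as a description without a test.

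Mature sperm are formed in the testis, where round spermatids pack their DNA with protamines in place of histones, build an acrosome and a flagellum, and shed most of their cytoplasm. Transcription stops during this packing, and the RNA found in ejaculated or epididymal sperm is therefore regarded as mostly left from earlier stages, fragmented and scarce. Protamine 2 (Prm2) and the testis-specific serine kinase 6 (Tssk6), which is needed for normal DNA packing, are classical messages of late spermatids, and enolase 1 (Eno1) is an enzyme of glycolysis.

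The study sequenced RNA of sperm and of whole testes from male mice without any treatment. The labels give the strain as C57BL/6 and the age as 3 to 5 months, while the methods name C57BL/6J and a somewhat younger range in weeks. Each of the 4 sperm samples (sperm-1 to sperm-4, called replicates 1 to 4) was a pool of mice, with sperm taken from the cauda epididymis and vas deferens and somatic cells removed by lysis. Ribosomal RNA was removed before strand-specific libraries were made, so that non-coding RNA was sequenced together with mRNA. The 2 testes samples were not used beyond the gene total above.

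All features together held 424606, 1058017, 366455 and 508252 estimated counts in replicates 1 to 4, of which 42390, 100027, 33511 and 54337 belonged to mRNA (9.14% to 10.7%). The number of mRNA genes listed was 2025, 6733, 1552 and 3316. Listed genes held a median of 8, 3, 9 and 5 counts, so replicates 1 and 3 had few genes at the lowest counts. A level of 3 counts, taken as the floor, was 0.00300% of mRNA counts in replicate 2 and 0.00895% in replicate 3. The study itself left replicate 1 out because of its correlation with the others. Values without it are given for some results only, and others can also change.

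The markers given for these cells were checked first. Prm2 was a member, with 45, 148, 49 and 130 counts in replicates 1 to 4 and FPKM (fragments per kilobase of transcript, scaled to sequencing depth) of 184, 239, 233 and 438. Its share of mRNA counts was 0.160% ± 0.0563 (SD, n = 4), which placed it at rank 68 by share and rank 14 by FPKM. Tssk6 was also a member, but with 7, 30, 79 and 27 counts. Replicate 3, the shallowest sample, held the most Tssk6, and its share there was 14.3 times that in replicate 1.

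Eno1 was not a member. It had 107.55, 271.91 and 81.59 counts in replicates 1, 2 and 4 and no row in the table of replicate 3, which was taken as 0. Its near-identical copy Eno1b was a member with 55.45, 130.09, 143 and 109.41 counts, and its share was highest in replicate 3. The sum of both genes took 0.385%, 0.402%, 0.427% and 0.352% of mRNA counts, a coefficient of variation (SD over mean, CV) of 8.08%, against 73.8% for Eno1 and 63.2% for Eno1b alone. Counting can split reads that fit both copies between them, and whether it did so here was not tested. The level of either gene alone is uncertain, and the sum had the smaller CV. Protamine 1 (Prm1) was below the minimum, with 6, 2, 0 and 2 counts.

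Start-site windows are shown for Prm2, the protamine of the set, and for Tssk6 and Ndufa13, a member pair that lies head to head and had FPKM of 60.7 ± 72.1 and 1931 ± 358 (SD, n = 4). Each window runs from 250 bases before to 50 bases after a RefSeq start on GRCm38.p6 and is written 5′ to 3′ on the strand of its gene. The windows are chr16:10792056-10792355 (minus strand) for Prm2, chr8:69901934-69902233 (plus strand) for Tssk6 and chr8:69901971-69902270 (minus strand) for Ndufa13. Capitals mark the TATAAA match in the Prm2 window, read on the opposite strand, and the 263 bases that the other windows have in common.
Prm2: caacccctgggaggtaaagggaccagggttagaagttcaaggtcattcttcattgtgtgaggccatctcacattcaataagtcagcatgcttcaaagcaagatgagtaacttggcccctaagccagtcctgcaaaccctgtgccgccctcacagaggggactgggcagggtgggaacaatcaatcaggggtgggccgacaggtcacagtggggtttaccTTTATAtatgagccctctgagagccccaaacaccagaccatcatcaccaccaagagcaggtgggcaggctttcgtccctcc
Tssk6: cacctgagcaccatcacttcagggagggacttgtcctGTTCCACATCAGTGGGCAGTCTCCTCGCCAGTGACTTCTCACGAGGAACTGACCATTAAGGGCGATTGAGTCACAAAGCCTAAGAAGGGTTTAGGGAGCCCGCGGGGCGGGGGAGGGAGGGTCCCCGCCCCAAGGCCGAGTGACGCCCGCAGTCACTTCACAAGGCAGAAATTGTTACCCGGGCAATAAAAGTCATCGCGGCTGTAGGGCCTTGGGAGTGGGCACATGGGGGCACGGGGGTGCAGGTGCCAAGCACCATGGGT
Ndufa13: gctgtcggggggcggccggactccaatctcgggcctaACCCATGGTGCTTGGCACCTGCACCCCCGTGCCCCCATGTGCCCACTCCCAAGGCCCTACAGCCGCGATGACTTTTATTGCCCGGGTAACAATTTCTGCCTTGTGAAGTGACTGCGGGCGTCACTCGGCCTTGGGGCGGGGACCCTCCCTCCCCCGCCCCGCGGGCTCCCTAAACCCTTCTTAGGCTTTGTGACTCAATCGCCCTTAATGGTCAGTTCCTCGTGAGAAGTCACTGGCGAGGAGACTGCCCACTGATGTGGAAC

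The letters TGACGTCA (a full cyclic AMP response element), TATAAA and CCAAT were searched on both strands in the windows of the 424 members that had one. TGACGTCA was in 3.30% of them, against 3.24% of the windows of all genes listed in sperm and 2.03% of all windows. TATAAA was in 6.84%, against 9.39% and 15.7%, and CCAAT in 38.9%, against 41.3% and 41.1%. The median GC content was 61.7%, against 60.7% and 52.8%. Members and all sperm-listed genes lay close in these letters and in GC content, while both groups held TATAAA less often than the windows of all genes.

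A few genes dominated the set. The 525 members held 71.2%, 63.4%, 74.5% and 68.9% of the mRNA counts in replicates 1 to 4, a mean of 69.5% ± 4.69 (SD, n = 4), and the 10 highest alone held 28.5% ± 3.64. The share of the 525 members was lower the more mRNA counts a sample had. A fixed minimum of counts asks for a larger share in a shallow sample, and the part of depth in this order was not tested. The first 20 held 32.8% ± 3.60 and the first 100 held 48.3% ± 3.60. At the other end, 88, 13, 128 and 69 members had fewer than 10 counts in replicates 1 to 4. The median member had 21, 50, 19 and 25 counts.

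**Figure D1:**
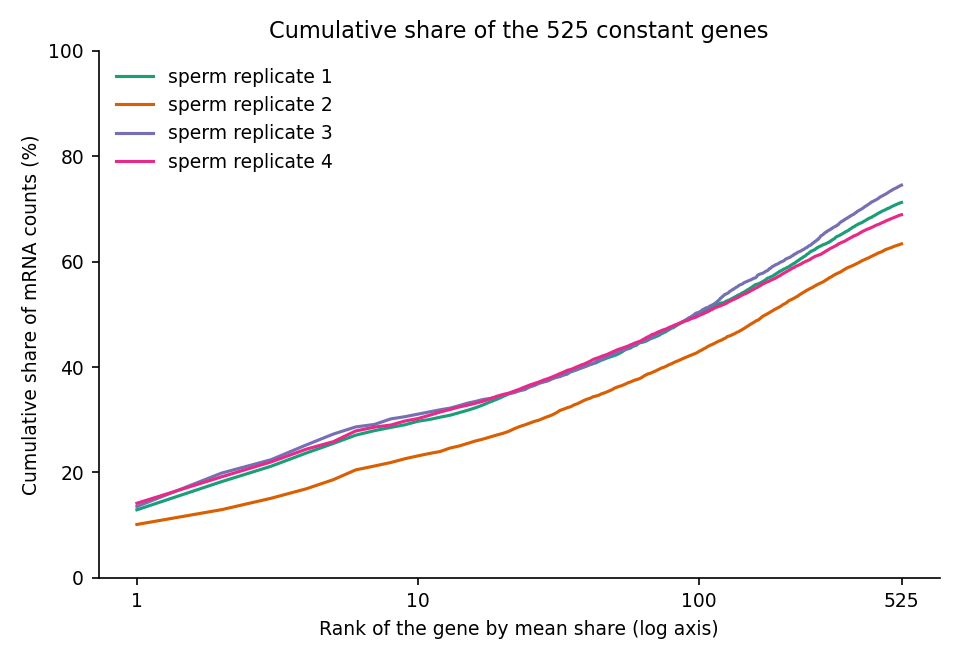
Cumulative share of mRNA counts (%, vertical axis) over the 525 constant genes ordered by mean share (horizontal axis, log scale), with a line for each sperm replicate. Replicate 2, the deepest sample, lies below the others throughout and ends at 63.4%, while the other lines end between 68.9% and 74.5%.

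Abi3 ranked first in all 4 samples. It encodes an adaptor of the actin-regulating WAVE complex. Its counts were 5470, 10128, 4536 and 7690, or 12.9%, 10.1%, 13.5% and 14.2% of the mRNA counts (12.7% ± 1.78, SD, n = 4; 12.6% ± 2.17 without replicate 1). Per length it was also the highest, with FPKM of 3413 ± 624. Abi3 (chromosome 11, 95830072 to 95842476) shares 2069 bases with Phospho1, a phosphatase gene that had 1, 4, 0 and 1 counts. All 4 samples were thus high for the former and near 0 for the latter.

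Ccdc189, a coiled-coil protein gene known from motile cilia and flagella, ranked second in all samples by counts with 2263, 2807, 2121 and 2719 (4.87% ± 1.49). Its share was lowest in replicate 2, the deepest sample, at 2.81%, and reached 6.33% in replicate 3. The tight-junction gene Cldn3 followed with 1240, 2162, 852 and 1537 counts (2.61% ± 0.343). Ndufa13, a subunit of respiratory complex I, had 1060, 1793, 936 and 1313 counts (2.38% ± 0.421). Per length Cldn3 and Ndufa13 lay level with Ccdc189, with FPKM of 2109 ± 386, 1931 ± 358 and 1911 ± 576, and these values did not differ beyond their spread.

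Cnbd2, a cyclic nucleotide binding protein required for sperm motility, had 775.28, 1740.73, 695.81 and 779.2 counts (1.77% ± 0.265). Tnfrsf13c, the receptor of B lymphocytes for the survival factor BAFF, had 664, 1850, 452 and 1099 counts (1.70% ± 0.299). These neighbours overlapped in share and in FPKM, 938 ± 94.1 and 897 ± 205. Below them came a clear step, since the seventh gene, Gfy, took 0.704% ± 0.160 with 364, 740, 161 and 401 counts. The same 6 genes led by counts and by FPKM.

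The remaining genes among the 20 highest after Gfy took between 0.386% and 0.678% of the mRNA counts each. They encode proteins of unrelated roles. Examples are the prion protein (Prnp), the ubiquitin ligase Trim41, the phosphatase subunit Ppp1r15b, fibrillarin (Fbl) of the nucleolus and the retinol dehydrogenase Rdh10. Further examples are alpha-tubulin (Tuba1b), the large cadherin Fat1, the sphingosine kinase Sphk2, the synaptotagmin-like Sytl3 and the B lymphocyte receptor Cd72. Gm5148, Fam160a2 and 1110051M20Rik were not assigned to a function. In this stretch the order was less fixed: 7 genes were among the first 10 in all 4 samples, 10 among the first 20, 26 among the first 50 and 58 among the first 100. Sytl3, for example, had 243, 393, 67 and 244 counts and ranked 10, 18, 62 and 15.

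**Figure D2:**
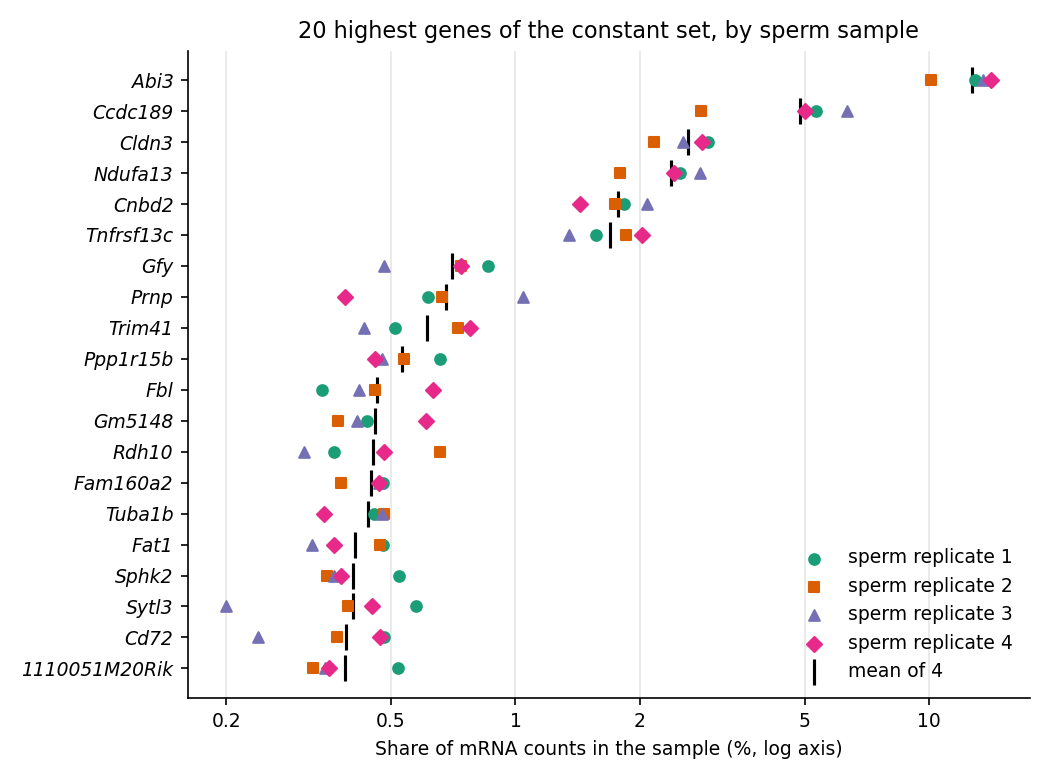
Share of mRNA counts (%, log axis) of the 20 highest genes of the constant set in each sperm replicate, with the mean of 4 as a black tick. Abi3 lies between 10.1% and 14.2% in every sample, well apart from Ccdc189, and from the seventh gene on the points of neighbouring genes overlap.

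Ranking by counts favours long transcripts, so the order by FPKM was compared. Prr3 (rank 10 by FPKM, 349 ± 74.0), Sdf2 of the endoplasmic reticulum (rank 12, 293 ± 38.7), Prm2 (rank 14, 274 ± 113) and the ribosomal protein gene Rps12 (rank 15, 252 ± 121) moved up on this scale. These genes were picked after their values were seen. Over all members the share of summed mRNA FPKM was 69.5% ± 4.49, level with the share of counts.

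Members were then sorted by function. The classes were assigned by hand from gene symbols after membership was known, so they describe the set and test nothing. Other genes of the 7527 listed in sperm were not classed. Whether a class is more frequent among members than among all these genes is therefore not known. Transcription and chromatin was the largest named class with 70 genes, followed by kinases, phosphatases and signalling adaptors with 56, mitochondria and metabolism with 54, and receptors, ligands and cell adhesion with 40. The classes of RNA binding, of cytoskeleton, cilia and centrosome, and of ubiquitin and protein turnover held 39 each. Sperm and spermatid function was given to 9 members, without Odf2 or Stk35, and 82 were not assigned.

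By share the order was different, because single genes carried some classes. Cytoskeleton, cilia and centrosome took 21.02% ± 3.02 of the mRNA counts, of which 3.47% remained without the 10 highest genes (Abi3 and Ccdc189 among them). Receptors, ligands and cell adhesion took 8.57% ± 0.273, of which 3.58% remained without the 10 highest genes, Cldn3, Tnfrsf13c and Prnp among them. Mitochondria and metabolism took 5.91% ± 0.710, of which 3.53% remained without Ndufa13. Transcription and chromatin took 5.07% ± 0.277, spread over many genes of low rank, with the AP-1 subunit Jund as its highest member at 80, 300, 126 and 175 counts.

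**Figure D3:**
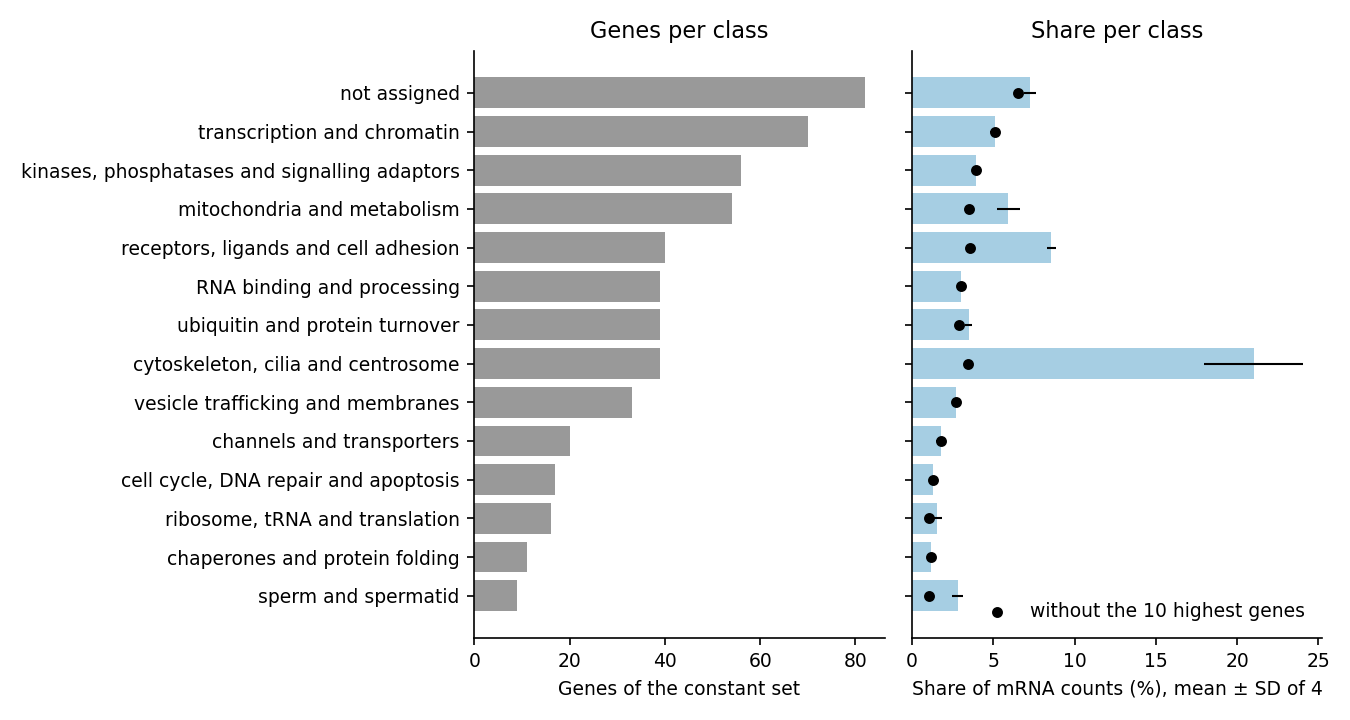
Number of constant genes in each hand-assigned function class (left) and the share of mRNA counts they held (right, mean ± SD of 4 sperm samples), with black points for the share without the 10 highest genes. Cytoskeleton, cilia and centrosome falls from 21.02% to 3.47% without those genes, while transcription and chromatin holds 70 genes and stays at 5.07%.

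The 9 genes assigned to sperm and spermatid function were Cnbd2, Adam1a, Tssk1, Prm2, Ggn, Tssk6, Ace, Tcp11 and Ccer1. Together they took 2.80% ± 0.322 of the mRNA counts, most of it from Cnbd2. Adam1a, which encodes a fertilin alpha protein of testicular germ cells, had 223.3, 382, 109 and 143 counts a share of 0.374% ± 0.113. Tssk1, a kinase of late spermatids, had 119, 170, 31 and 86 counts. Its share was highest in replicate 1 and lowest in replicate 3, opposite to that of Tssk6.

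Lists of genes that sperm and spermatids are known for were counted next. Over 16 function lists, 397 genes were listed in any sperm sample and 26 of these were members (6.55%), beside 6.97% of all sperm-listed genes. Testis kinases and phosphatases had 5 members of 18, namely Tssk1, Tssk6, Stk35, Csnk2a2 and Gsk3a. Nuclear condensation had 1 of 9 (Prm2), flagellum structure 1 of 29 (Odf2 of the outer dense fibres, with 12, 78, 13 and 27 counts), and the acrosome and sperm-egg list 1 of 15 (Adam1a). The axonemal dyneins had 0 of 17 and the Spata, Spag and Tex genes 0 of 28, although both lists had counts in each sample (15 to 65.06 and 38.97 to 133.19 in sum).

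Glycolysis had 2 members of 26, Eno1b and the lactate carrier Slc16a3 (23, 56, 29 and 43 counts). Mitochondrial respiration had 2 of 28, Ndufa13 and Atp5f1, the latter a subunit of ATP synthase with 49, 81, 28 and 36 counts. Per length, Atp5f1 lay far below Ndufa13, with FPKM of 52.9 ± 12.9. The voltage-gated proton channel gene Hvcn1 was the sole member of 11 ion channel and capacitation genes, with 40, 58, 41 and 20 counts.

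Among housekeeping lists, cytosolic ribosomal proteins had 2 members of 51, Rps12 (84, 120, 23 and 52 counts) and Rpl10 (43, 100, 34 and 26 counts). Translation factors had 1 of 45 (Eif6, 8, 32, 21 and 25 counts), core and linker histones 1 of 24 (the linker histone H1fx), and the redox list 0 of 9. Chaperones had 3 of 33, the chaperonin subunit Tcp1 with 106, 149, 31 and 47 counts and the cochaperones Dnajb8 and Dnajc5. Ubiquitin and proteasome genes had 4 of 43 (Rnf4, Psmd8, Psmd3 and Ube2d2a), and tubulins and cytoskeleton 2 of 22 (Tuba1b and Tubb5). Each of these lists has at most 4 members, so its share rests on few genes or none.

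Several high members are known from other cells, so markers of such cells were counted. In such pooled samples fewer cells of a type and less RNA per cell cannot be told apart. Marker lists covered leukocytes, epithelium, smooth muscle and endothelium, red cells, Sertoli and Leydig cells and early germ cells, with 25 genes listed in sperm. None of these 25 was a member, but only 6.97% of all sperm-listed genes were. Epcam, Tagln, Star and Gfra1 (7, 2, 6 and 7 counts) each fell under 5 counts in a single sample. Lists of epithelium, smooth muscle and endothelium, Sertoli and Leydig cells and early germ cells each had 1 member in 1 of 12 alternative settings. Beside Tnfrsf13c, Cd72 and the class II gene H2-Ab1 (113, 172, 73 and 149 counts), 4 of 20 leukocyte markers were listed, with a sum of 0, 4, 0 and 4 counts. The common leukocyte antigen Ptprc and the B lymphocyte gene Cd79a were at 0 in all 4 samples. Beside the epithelial gene Cldn3, 10 of 44 epithelium markers were listed, with a sum of 5, 23.36, 19.16 and 11 counts, of which Epcam had 5, 6, 5 and 0. The Leydig gene Star had 0, 16, 40 and 6 counts and the smooth muscle gene Tagln 22, 7, 7 and 0, so each was high in a single replicate, and their part in the results was not tested. Of red cell markers 1 of 7 was listed (1 count in replicate 2), and of early germ cell markers 3 of 18, with sums of 7 to 13 counts.

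The spread between replicates was large for most members. The median CV of a member's share was 40.0% (quartiles 28.5% and 54.4%, range 2.22% to 139%), where counting error alone would give a median of 19.5%. The CV was above the value for counting error in 475 of the 525 members. Counting error alone would also place a part of the members above that value, and how many was not computed. All 4 shares were within 2-fold of each other for 161 members and within 3-fold for 329, and 8 members were over 10-fold apart. The spread was smaller at the top, with a median CV of 21.3% in ranks 1 to 20 against 45.0% in ranks 251 to 525, yet relative to counting error (6.43% and 25.2%) it was larger there. Without replicate 1 the median CV of the same 525 genes was 35.6%.

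**Figure D4:**
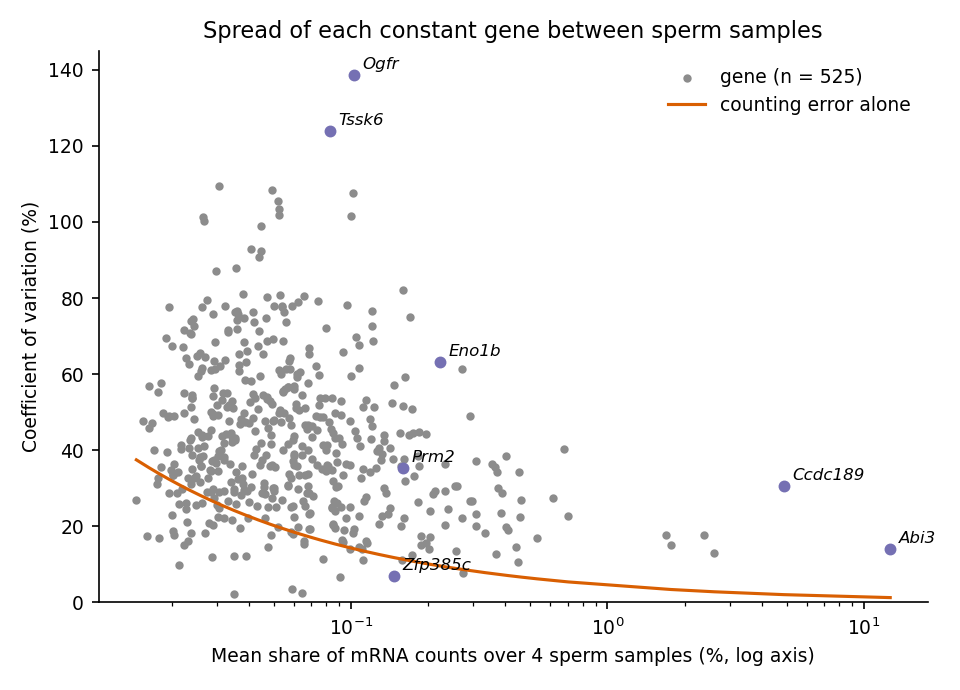
Coefficient of variation (%) of each of the 525 constant genes over 4 sperm samples against its mean share of mRNA counts (%, log axis), with the value that counting error alone would give as a line. Most genes lie above the line, with Ogfr highest at 139% and Abi3 at the far right with 14.0%.

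Among members with a mean count of 20 or more, the largest CVs belonged to Ogfr (139%), Tssk6 (124%), Tfip11 (108%), Bysl (107%) and Atg7 (105%). Ogfr, the opioid growth factor receptor, had 11, 25, 106 and 24 counts. Bysl, a factor of small ribosomal subunit assembly, had 7, 57, 88 and 39. Tfip11 of the spliceosome had 10, 15, 43 and 16, and the autophagy enzyme Atg7 had 10, 21, 45 and 16. Replicate 3, the shallowest sample, held the highest count of each of these 5 genes.

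The smallest CVs belonged to Atg4d (2.22%; 15, 34, 12 and 19 counts), Snx18 (2.51%; 27, 66, 22 and 34), Dnaaf1 (3.46%; 25, 56, 20 and 33), Akap12 (6.64%; 35, 97, 30 and 50) and Zfp385c (6.88%; 61, 135, 51 and 86). Atg4d is an autophagy protease, Snx18 a sorting nexin, Dnaaf1 an assembly factor of axonemal dyneins and Akap12 an anchor of protein kinase A. Each followed the depth of its sample closely. These CVs were below the values for counting error alone (11.8% to 24.2%), so their order was not resolved at this depth.

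Replicate 3 stood apart from the other samples. Spearman's rho over the 525 members, given without a test because members share their libraries, was 0.846 between replicates 2 and 4, 0.739 between 1 and 2, and 0.693 between 1 and 4. With replicate 3 it was 0.537, 0.623 and 0.580 for replicates 1, 2 and 4. The mean over all pairs was 0.669 ± 0.114. Pairs without replicate 1 had a mean of 0.683 and pairs without replicate 3 a mean of 0.759. Replicate 3 gave the highest share for 198 members, against 149, 91 and 87 for replicates 1, 2 and 4. The fixed minimum of 5 counts asked for a larger share in the shallow replicates 3 and 1. These numbers of highest shares therefore do not set replicate 3 apart, and the part of the rule in them was not tested. Replicate 3 also held the lowest count for 254 members, against 176, 8 and 87 for replicates 1, 2 and 4, an order that followed depth. Replicate 3 was the shallowest sample, and the part of depth in its lower rho was not tested.

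How far membership depended on a single sample was seen by leaving each out. The other 3 samples gave 676, 534, 817 and 597 genes when replicate 1, 2, 3 or 4 was left out, and 525 of these also had 5 or more counts in the sample left out (77.7%, 98.3%, 64.3% and 87.9%). Of the rest, 106 genes were at 0 in replicate 1 and 229 in replicate 3, against 1 in replicate 2 and 28 in replicate 4. The percentage found again rose with the mRNA counts of the sample left out, and the part of depth was not tested. Its mean was 82.0% ± 14.5 (SD, n = 4). With the share of 5 counts in the shallowest sample as the minimum in every sample, the mean was 86.5% ± 7.30. Of all 7527 genes, 3897 had 5 counts or more in no sample, 1744 in 1, 837 in 2, 524 in 3 and 525 in all. Over all mRNA genes with 10 or more counts in total, edgeR's common biological CV was 125%, and 94.1% without replicate 3.

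The threshold cut through a continuous range. A minimum of exactly 5 was found for 46 members, among them Yod1 (6, 17, 6 and 5 counts), Irf2bp2 (5, 26, 5 and 5) and Aars2 (6, 15, 5 and 11). Just outside were 55 genes with a minimum of 4 or more but under 5, such as Invs (15.93, 9.06, 8.07 and 4.49), Enah (30, 125, 4 and 30) and Map3k6 (4, 66, 37 and 27). A gene such as Enah, with 125 counts in the deepest sample, thus missed the set through replicate 3 alone.

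Members differed from other sperm-listed genes in their overlap with neighbouring genes, which the rule did not use directly. By the rule members also had higher counts, and the part of counts in this difference was not tested. Of the 523 members matched to GRCm38.p6, 356 (68.1%) overlapped another annotated gene, against 50.1% of the other sperm-listed genes, and 221 (42.3%) overlapped a protein-coding gene, against 23.7%. A protein-coding gene on the opposite strand was overlapped by 154 of 424 members with a known strand (36.3%), against 18.7%, and one on the same strand by 1.89%, against 2.29%. The median annotated span was 17419 bases for members and 21336 for the other genes, and the part of gene length in the overlap was not tested. The difference in overlap was described and not tested, since genes are not replicates.

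The share of genes that overlapped a protein-coding gene rose with each further sample that held 5 or more counts, from 19.9% of genes with none to 25.9%, 30.1%, 34.0% and 42.3% with 1, 2, 3 and 4. Members that overlapped any gene held 53.1% ± 5.40 of the mRNA counts, and those without such a neighbour 16.4%. The libraries were strand-specific by the study's methods, but the sources used give no strand setting for the counting. Whether reads from an overlapping gene are part of a member's count was therefore not tested.

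**Figure D5:**
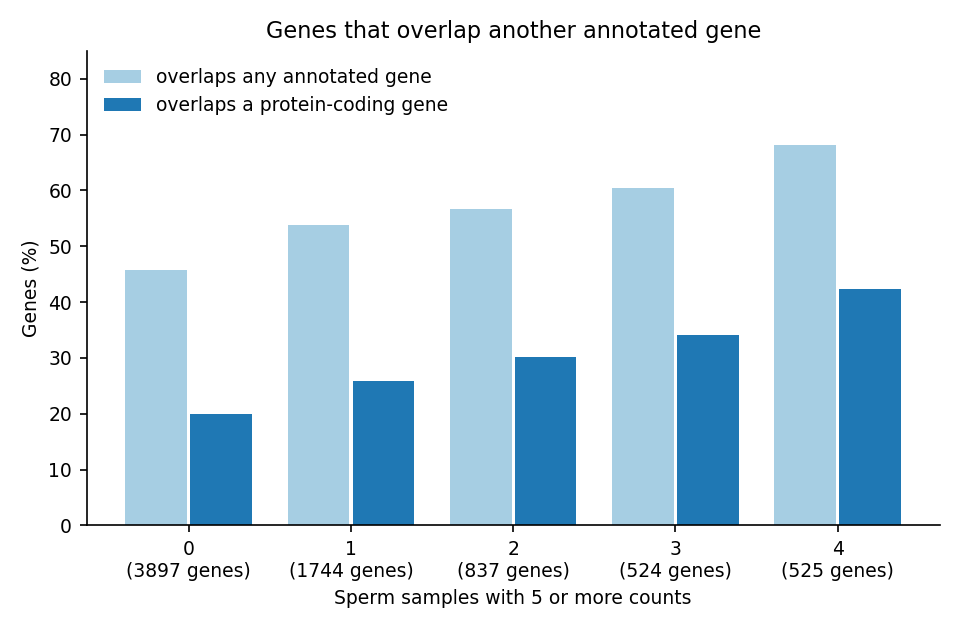
Share of genes (%) whose GRCm38.p6 interval overlaps any annotated gene (light bars) or a protein-coding gene (dark bars), by the number of sperm samples in which the gene had 5 or more counts. The dark bars rise from 19.9% with 0 samples to 42.3% with all 4.

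Pairs were then compared gene by gene. Members formed 176 pairs with an overlapping coding gene that was itself listed in sperm, of which 80 lay tail to tail, 32 head to head, 9 one within the other, 4 on the same strand and 51 with a strand not known. In 157 pairs the partner was not a member, and in 56 of these the partner stayed under 5 counts in all 4 samples. Members had to pass the count minimum and partners did not, so nothing follows from the direction of these pairs. Partners with almost no counts beside a high member included Phospho1 beside Abi3 and Phkg2, a phosphorylase kinase subunit, beside Ccdc189 (1, 5, 0 and 0 counts).

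In 19 pairs both genes were members. Ndufa13 and Tssk6 (chromosome 8, 69894163 to 69902558 and 69902184 to 69903518) share 375 bases head to head as annotated intervals, with the counts given above. The Ndufa13 interval extends beyond the window printed for it, and the start used for that window lies outside the Tssk6 interval. The overlap of these genes thus rests on the full Ndufa13 interval and depends on the start used. Cd72 (204, 370, 80 and 255) and the testis kinase gene Tesk1 (42, 139, 75 and 65) share 352 bases tail to tail. Acat3 (103, 124, 81 and 71) and Tcp1 (106, 149, 31 and 47) share 1238 bases. Replicate 3 held the fewest counts of the Cd72 and Tcp1 genes but not of Tesk1, so the partners did not keep a fixed ratio.

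The median transcript length of members was 3166 bases, against 2918 for other sperm-listed genes. A minimum on counts favours long transcripts, so nothing follows from this difference in length. Only 3 members (0.574%) lay on the X chromosome, against 1.83% of the other genes, and none on the Y chromosome.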

How the data were processed

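The authors removed ribosomal RNA by RNase H, sequenced strand-specific libraries on an Illumina HiSeq instrument and aligned the reads. Their paper names SOAPaligner/SOAP2, while the submitters' processing notes name HISAT and mm10, and the counting program, its version and the strand setting of the counting are not given in the sources used here. The deposited tables give for each transcript an estimated count (not normalised), its length and, from the authors, FPKM, and leave out nearly all transcripts without a count, so an absent gene was taken as 0.

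Transcripts with an NM_ accession were summed per gene and sample. Shares are per 100 mRNA counts. The members and lists were chosen with earlier results of these data known, and the function classes after membership was known. Genes named in the text were the markers given, the 20 highest members, up to 3 members per list, the 5 members with the largest and smallest CV (mean count of 20 or more) and 5 on each side of the threshold. Other genes named were chosen after their values were seen. No test between groups was made. Rounded counts entered edgeR 4.0.16 (estimateDisp, TMM, genes with a total of 10 or more) and DESeq2 1.42.0 size factors in R 4.3.3. The edgeR step was checked on simulated counts, and the rest was computed in Python 3.11.15 with pandas 2.3.3. Positions came from RefSeq GRCm38.p6, matched by accession, and start-site windows from RefSeq on the same build. The value for counting error assumes independent fragments, covers counting error only, and PCR copies would raise it. Each sperm sample is a pool of mice, and SDs measure the spread between pools. Alternatives were other count minimums, a minimum on share or FPKM, the highest transcript alone, rounding, other scaling and leaving out each sample. Overlapping members and Abi3 were left out as alternatives chosen after seeing the data.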

Additional observations from a re-analysis of the deposited data

Results flagged for a closer look

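Among 102 values looked at over the 4 sperm samples, 11 had a sample whose gap to the nearest other, as a part of the whole range, exceeded Dixon's critical value for 4 samples. Chance flags about 1 in 20 such groups, or 5.1 here, and the values are not independent. Replicate 3 was far above the others for 4 genes. Tssk6 took 0.236% of its mRNA counts against 0.0165% to 0.0497%, Atg7 0.134% against 0.0210% to 0.0294%, Tfip11 0.128% against 0.0150% to 0.0294%, and Ogfr 0.316% against 0.0250% to 0.0442%. The genes Tssk6, Atg7, Tfip11 and Ogfr had been named for a large spread, so such a gap was likely among them. Replicate 2 was low for the 10 highest members, with 23.1% against 29.7% to 31.1%, and for Fam160a2, with 0.378% against 0.467% to 0.479%. It was also the single sample with a red cell marker, at 0.00100%, which is 1 count. Replicate 1 was high for Sphk2 (0.524% against 0.350% to 0.379%) and 1110051M20Rik (0.521% against 0.324% to 0.353%). Replicate 4 was low for Rpl10 (0.0478% against 0.1000% to 0.101%) and high for Aars2 (0.0202% against 0.0142% to 0.0150%), which rests on 11 counts.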

How the results depend on the processing

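Among the samples, leaving out replicate 3, the shallowest, changed the set most (817 members). Leaving out single samples gave 534 to 817 members, a share of 71.7% to 76.4%, a share of the 10 highest of 27.7% to 30.3%, a median CV of 35.1% to 42.0%, an edgeR common CV of 94.1% to 136%, a mean rho of 0.610 to 0.695, 28 to 39 members on function lists and 71.5% to 76.3% of genes found again in a further sample. A minimum of 10 counts left 314 members with a share of 62.3% and 17 members on function lists. Without members that overlap another annotated gene, 169 remained with a share of 16.4%, 14 were on function lists and the 10 highest held 5.98%. Without Abi3 the share was 56.8% and the 10 highest held 16.3%. Of 97 recomputed main values, 11 moved by over 1.5 times or over 1 SD. The remaining alternatives, among them a minimum of 3 counts (633 members), a minimum share (435) and FPKM of 1 or more (681), stayed within those limits. No paired analysis was possible because no result comes from a test and a single group was described.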
